A study of Mus musculus with 12 samples.

Results

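Delta receptors, cerebellins and their partners organise the excitatory synapses on Purkinje cells, the inhibitory output neurons of the cerebellar cortex. The 8 genes described here are the secreted ligands Cbln1, Cbln3 and C1ql1, the receptors Grid1 and Adgrb3, the scaffold Grid2ip, and the neurexins Nrxn2 and Nrxn3. They were taken by gene symbol through their Ensembl identifiers and are 8 of the 43346 annotated genes in the tables. The rule itself used no measured value, but the genes were chosen with earlier results of these data known. They were measured by Smart-seq, a full-length RNA-seq method for very small inputs, in 12 libraries. Each library was made with spike-in RNA from 1 cell-equivalent of total RNA (fragments over 200 bases) of a homogenate of 13 Purkinje cells excised from 1 male B6CASTF1/J mouse (a hybrid of Castaneus and C57Bl6) aged 14 months. The libraries are technical replicates 1 to 6 and 8 to 13 of that 1 pool and form 1 group, with no treatment and no control, and are named below by those numbers. Every SD below therefore describes the spread between splits of 1 pool, and every p-value refers to those splits. Neither says anything about animals or single cells.

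A Purkinje cell receives very many weak inputs from parallel fibres, the axons of granule cells, and strong input from a climbing fibre, whose cell body lies in the inferior olive outside the cerebellum. At the parallel fibre synapse, cerebellins released by granule cells bridge neurexins that carry the insert at splice site 4 on the axon to a delta-type glutamate receptor on the Purkinje spine. At the climbing fibre synapse, C1ql1 from the olivary neuron binds Adgrb3 on the Purkinje dendrite. By this background Cbln1, Cbln3 and C1ql1 come from the input side, Adgrb3 and Grid2ip belong to the Purkinje side, and neurexins act in axon terminals, those of Purkinje cells included.

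The libraries had 15167400 to 27806000 expected counts in all, and 8497 to 11581 annotated genes reached an expected count of at least 1. An expected count is an estimated number of reads, and TPM is a share of the transcripts of a library that is scaled by length, so that genes can be compared with each other. The labelled cell type was borne out by its markers: 15 Purkinje marker genes summed to 25296 ± 4939 TPM (SD, n = 12). Pcp4, Pcp2 and Gng13 held most of that sum, at means of 7724, 7156 and 5459 TPM. A count in all 12 libraries was found for 14 of the 15, beside 8.46% of all annotated genes. The exception, Skor2, had a count in 3 libraries and a mean of 0.758 TPM. Markers of neighbouring cells were measured as well. The 12 granule cell markers summed to 484.5 ± 225 TPM, from 103 to 945, the 10 Bergmann glia and astrocyte markers to 2282 ± 688 TPM, the 10 interneuron markers to 363 ± 208 TPM, of which Npy alone gave a mean of 322.4 TPM while Sst had no count, and the 8 oligodendrocyte markers to 201 ± 85.1 TPM. In such a bulk lysate, fewer cells of a type and less RNA per cell cannot be told apart.

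Among the 8 genes, 7 were measured and C1ql1 had no count in any library. Cbln1, Adgrb3 and Nrxn3 reached an expected count of at least 1 in all 12 libraries, as did 8.46% of all annotated genes. Cbln1 and Nrxn3 reached at least 50 in all 12, as did 3.72% of all annotated genes. A gene with less than 1 count in every library, as C1ql1, was common in the tables at 60.9% of all annotated genes. A single library held 5 to 7 of the 8 genes, and libraries 5 and 13 held 7.

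Cbln1 (ENSMUSG00000031654.11; mm10 chr8:87468405-87472609, minus strand) encodes the cerebellin that granule cells release onto Purkinje spines. It was found at 1.12 TPM in the lowest library, a median of 10.1 TPM and 86.5 TPM in the highest, with a mean of 23.6 ± 26.3 TPM (SD, n = 12). The expected counts behind these levels ran from 54 to 4259. Libraries 10 and 6 stood highest, at 86.5 and 50.6 TPM, and libraries 8, 3 and 2 lowest, at 1.1, 1.5 and 2.5 TPM. The levels in these libraries span the whole range of the gene although all are splits of 1 pool. The transcript Cbln1-201 held 75.1% of the summed level and led in 10 libraries, and Cbln1-202 held 50.4 TPM of the level in library 10.

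Cbln3 (ENSMUSG00000040380.9; mm10 chr14:55878913-55884392, minus strand) encodes the cerebellin that is secreted in complexes with Cbln1. Its lowest level was 0, its median 16.7 TPM and its highest 86.7 TPM, with a mean of 26.9 ± 31.2 TPM (SD, n = 12) and counts of up to 7791. It was high in libraries 13, 4 and 9, at 86.7, 70.1 and 69.7 TPM, and had 1 count, or 0.01 TPM, in library 2 and none in libraries 6 and 8. Set against Cbln1, the libraries gave a mixed picture. Library 13 was high in both, with 41.4 TPM of Cbln1, and library 10, the highest in Cbln1, held 30.0 TPM of Cbln3. Libraries 4 and 9 held 8.7 and 5.1 TPM of Cbln1, while library 6 held 50.6 TPM of Cbln1 and none of Cbln3. Over all 12 libraries the level of Cbln1 exceeded that of Cbln3 by 0.29 ± 2.59 on the log2(TPM + 1) scale (SD), higher in 8 of 12, and the difference did not pass an exact permutation test that flips the signs of the differences, two-sided (adjusted p = 0.734).

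C1ql1 (ENSMUSG00000045532.5; mm10 chr11:102939264-102946688, minus strand), the climbing fibre ligand, was listed at 0 in all 12 libraries. A count of 0 allows up to 3 counts, which is 0.0827 to 0.162 TPM per library and 0.0137 CPM (a share of all gene counts) over the sum of the 12 libraries. These limits cover counting error only, since PCR reads without molecular identifiers are not independent molecules. The level of C1ql1 was thus below that of Cbln1 in every library. Of the 8 genes listed for C1q-type ligands, 3 had a mean of at least 1 TPM and 5 had no count in any library, and all 4 C1ql genes were among the 5. The median of the mean level over the list was 0, as it was over all annotated genes. Of all annotated genes, 28.1% had a mean of at least 1 TPM and 60.9% had no count in any library. The 62.5% of the list with no count lies near that share and is not read as a trait of these ligands.

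Transporters that fill glutamate vesicles gave a second view of the input side. Slc17a7, the transporter of mature granule cells, stood at a mean of 5.11 TPM with a count in 10 libraries. Slc17a6, known from climbing fibres, and Slc17a8 had no count in any library. Gabra6, a GABA receptor subunit made by granule cells, had a mean of 99.2 TPM, from 0.14 to 250. It was the highest of the 12 granule cell markers, whose median of the mean level was 28.6 TPM and whose lowest, Zic2, stood at 1.22 TPM.

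Adgrb3 (ENSMUSG00000033569.13; mm10 chr1:25067476-25829707, minus strand) encodes the adhesion G protein-coupled receptor to which C1ql1 binds. Its levels ran from 0.09 TPM in library 3 through a median of 27.4 TPM to 139 TPM in library 2, with a mean of 47.2 ± 45.4 TPM (SD, n = 12). Expected counts ran from 6 to 8286, and 11 libraries had at least 50. Libraries 2, 5 and 11 were high, and libraries 3 and 6 were low.

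By the deposited estimates, much of the Adgrb3 level was assigned to transcripts with no annotated coding sequence. These estimates divide reads among overlapping transcripts, and the split was not checked on reads. Protein-coding transcripts held 53.8% of its summed TPM, or 25.4 ± 26.8 TPM (SD, n = 12). Of its 11 annotated transcripts 10 had a level above 0, and 7 different transcripts led in the 12 libraries. Adgrb3-203, which is protein-coding, held 32.0% of the summed TPM and led in 4 libraries. The retained-intron transcripts Adgrb3-208 and Adgrb3-210 held 19.3% and 19.6%, most of it in library 2 (82.4 TPM) and library 5 (76.0 TPM). The protein-coding Adgrb3-206 held 16.7%, nearly all of it in library 11 (93.7 TPM).

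**Figure D1:**
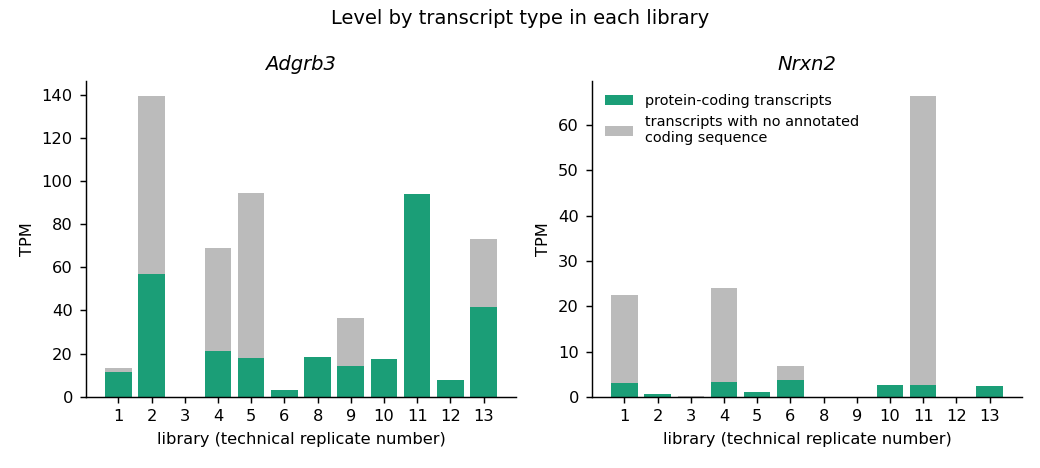
TPM of Adgrb3 (left) and Nrxn2 (right) in each of the 12 libraries, as stacked bars of protein-coding transcripts (green) and transcripts with no annotated coding sequence (grey). Libraries 2 and 5 of Adgrb3 are mostly grey while library 11 is green, and library 11 of Nrxn2, its highest at 66.4 TPM, is nearly all grey.

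Grid1 (ENSMUSG00000041078.6; mm10 chr14:34820108-35583379, plus strand) encodes the delta receptor that is spread widely through the brain. It had counts in 3 libraries, at 15.3 TPM in library 3, 0.7 TPM in library 5 and 30.3 TPM in library 13, and none in the other 9, so that the lowest and the median were 0. The mean was 3.86 ± 9.42 TPM (SD, n = 12), and 1.45 TPM without library 13. Grid1-202, a processed transcript of 825 bases with no annotated coding sequence, held 82.3% of its summed TPM and 35.4% of its counts. Protein-coding transcripts of Grid1 came to a mean of 0.683 TPM, of which library 13 held 7.52 TPM and library 5 held 0.67 TPM.

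Grid2ip (ENSMUSG00000010825.13; mm10 chr5:143357338-143392152, plus strand) encodes delphilin, a scaffold that binds the delta receptor inside the Purkinje spine. Its lowest level was 0, its median 0.115 TPM and its highest 22.9 TPM, in library 5, with a mean of 2.59 ± 6.54 TPM (SD, n = 12). A count of at least 1 was found in 10 libraries, and of at least 50 in 3, libraries 5, 12 and 13. Without library 5 the mean was 0.744 TPM. Protein-coding transcripts held 94.8% of the level. An antisense gene, Gm20635, overlaps 645 of its exonic bases and stood at 0.456 TPM, and since the strand of the library is not given, reads of the 2 genes cannot be told apart there.

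Grid2ip was also set in a wider list, which holds Grid1 and Grid2ip as well and is not limited to genes of Purkinje cells. In this list of 14 delta receptors, partners and signalling genes, all 14 had a mean of at least 1 TPM, beside 28.1% of all annotated genes. A count in all 12 libraries was found for 9, beside 8.46% of all annotated genes, and at least 50 counts in all 12 for 7, beside 3.72%. The median of the mean level was 28.7 TPM. Homer3, a scaffold of the Purkinje spine, ran from 84.1 to 340 TPM with a mean of 219. Grid2ip was the lowest of the list.

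Neurexins exist as long and short forms from separate promoters, and a short exon at splice site 4 can be kept or skipped. Cerebellins bind the forms that keep it. The exon and its flanks are shown because the deposited transcript levels split Nrxn3 by this exon. It covers mm10 chr12:90199147-90199236 on the plus strand and is 90 bases long. The sequences are those of GENCODE M21 transcripts on the mm10 assembly, 5′ to 3′, with the splice site 4 exon in capitals and 15 bases of the exons on either side in lower case.
Nrxn3-202, exon kept: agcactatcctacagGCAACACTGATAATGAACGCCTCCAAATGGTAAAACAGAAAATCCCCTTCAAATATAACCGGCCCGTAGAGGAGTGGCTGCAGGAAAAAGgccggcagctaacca
Nrxn3-203, exon skipped: agcactatcctacaggccggcagctaacca

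Nrxn3 (ENSMUSG00000066392.7; mm10 chr12:88722876-90334935, plus strand) had the highest mean of the 8 genes. Its levels ran from 14.7 TPM through a median of 74.9 TPM to 141.0 TPM, with a mean of 74.5 ± 41.8 TPM (SD, n = 12) and counts of 1963 to 16773. It was the only one of the 8 genes above 10 TPM in every library. Protein-coding transcripts held 90.3% of its level.

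Transcripts of Nrxn3 that keep the splice site 4 exon and transcripts that skip it were both present. Those that keep it stood at 5.96 TPM in the lowest library, a median of 25.8 and 135 TPM in the highest, with a mean of 35.6 ± 35.9 TPM (SD, n = 12). Those that skip it ran from 0 through a median of 41.8 to 91.9 TPM, with a mean of 34.0 ± 29.7 TPM. Each kind was the higher in 6 libraries, and 51.2% of the summed level of both kinds kept the exon. In single libraries that share ran from 14.1% to 100% with a mean of 56.5 ± 31.6% (SD, n = 12), and no form led in all splits.

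The transcripts that carry most of this split also differ in length. The long Nrxn3-205, which keeps the exon, had a mean of 27.0 ± 32.6 TPM, or 36.3% of the summed TPM, and the short Nrxn3-203, which skips it, had a mean of 32.4 ± 27.9 TPM, or 43.4%. By counts Nrxn3-205 held 62.8%. Other transcripts crossed length and exon. The short Nrxn3-202 keeps the exon and held 10.7% of the summed TPM, up to 44.1 TPM in library 5. Nrxn3-213, counted with the long forms, skips it and reached 13.4 TPM in library 4. Nrxn3-213 and the long Nrxn3-208, which keeps the exon, are annotated as targets of nonsense-mediated RNA decay and not as protein-coding. Both are included in the sums by exon and by length. Long forms together came to 29.3 ± 32.6 TPM and were the higher in 5 libraries, and short forms to 40.3 ± 34.5 TPM and were the higher in 7 (SD, n = 12). These transcripts differ at their starts and 3′ ends too, so their estimated levels do not rest on reads across the splice site 4 junctions alone.

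**Figure D2:**
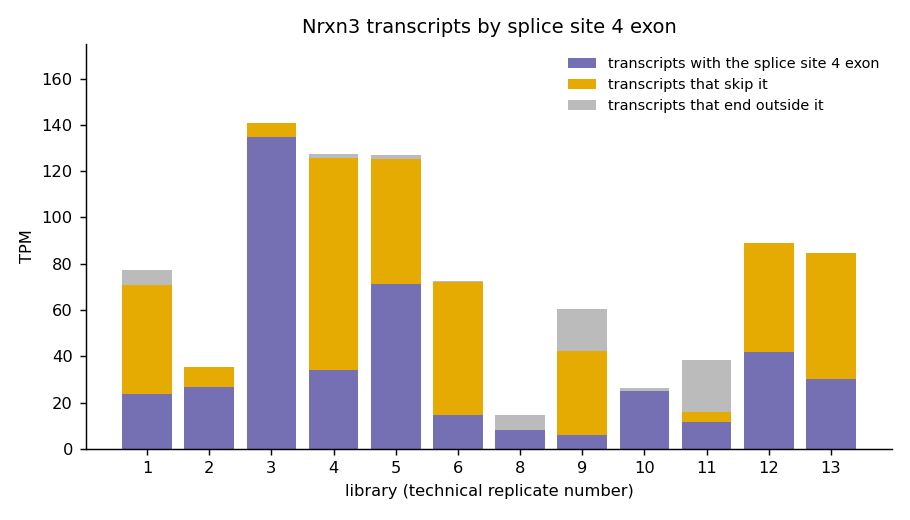
TPM of Nrxn3 in each of the 12 libraries, stacked by transcripts that keep the splice site 4 exon (purple), transcripts that skip it (yellow) and transcripts that end outside it (grey). Library 3 is nearly all purple at 135 TPM, whereas library 4 holds 91.9 TPM of transcripts that skip the exon.

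Nrxn2 (ENSMUSG00000033768.12; mm10 chr19:6418731-6544169, plus strand) was far lower. Its lowest level was 0, its median 1.66 TPM and its highest 66.4 TPM, in library 11, with a mean of 10.5 ± 19.6 TPM (SD, n = 12) and 5.44 TPM without library 11. It had a count in 10 libraries and at least 50 counts in 6. Nrxn2-213, a processed transcript of 576 bases with no annotated coding sequence, held 84.9% of its TPM but 39.0% of its counts, since TPM divides counts by length. Protein-coding transcripts came to 1.59 ± 1.45 TPM (SD, n = 12). On the opposite strand, the antisense gene Gm14964, at 0.423 TPM, overlaps 207 exonic bases of Nrxn2, and Slc22a12, listed at 0, overlaps 682. As the strand of the library is not given, reads of these genes cannot be told apart there.

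The genes were then compared with each other within libraries. In order of mean level they were Nrxn3, Adgrb3, Cbln3, Cbln1, Nrxn2, Grid1, Grid2ip and C1ql1. Of the 21 pairs among the 7 measured genes, 13 differed by that exact permutation test at a p of 0.05 adjusted over all 28 pairs. The other 7 pairs set a gene against C1ql1, which was at 0 throughout, and can only come out in 1 direction, so they are not read as results. Grid1 had no count in 9 libraries, where it could not be the higher gene, and was in 4 of the 13 pairs. Grid2ip, with a median of 0.115 TPM, was near that floor too. Calls with these genes rest largely on their lack of counts. The share of all pairs of annotated genes that differ was not counted. The smallest p this test can give with 12 libraries is 0.000488. Nrxn3 stood above most others. On the log2(TPM + 1) scale Nrxn2 minus Nrxn3 was -4.00 ± 2.25 (SD; lower in 11 of 12 libraries, adjusted p = 0.00342), Cbln1 minus Nrxn3 was -2.26 ± 1.91 (lower in 11 of 12, adjusted p = 0.00684) and Cbln3 minus Nrxn3 was -2.55 ± 2.17 (lower in 9 of 12, adjusted p = 0.00684). The test did not separate the Purkinje receptor Adgrb3 from the granule cell ligands: Cbln1 minus Adgrb3 was -0.90 ± 2.61 (adjusted p = 0.273) and Cbln3 minus Adgrb3 was -1.19 ± 2.95 (adjusted p = 0.227).

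Among neighbours in that order, Adgrb3 and Nrxn3, Cbln3 and Adgrb3, Cbln1 and Cbln3, Nrxn2 and Grid1, and Grid1 and Grid2ip did not differ by the permutation test. Adgrb3 minus Nrxn3 was -1.35 ± 2.5 (lower in 9 of 12 libraries, adjusted p = 0.117), and without library 2, where Adgrb3 was highest, it was -1.65 and passed (adjusted p = 0.0479). Cbln1 stood above Nrxn2 by 1.75 ± 2.21 (10 of 12, adjusted p = 0.0353), a call that was lost without any 1 of libraries 5, 6, 9, 10, 12 or 13 (adjusted p = 0.0633 to 0.0705). Grid2ip was below Cbln1 in 12 of 12 libraries, by -2.84 ± 1.75, and below Adgrb3 in 12 of 12, by -3.75 ± 2.09 (adjusted p = 0.00195 for both). Grid1, with no count in 9 libraries, was below Cbln1 by -2.91 ± 2.52 (11 of 12, adjusted p = 0.00684). Grid1 minus Grid2ip was -0.07 ± 1.92 (adjusted p = 0.896).

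**Figure D3:**
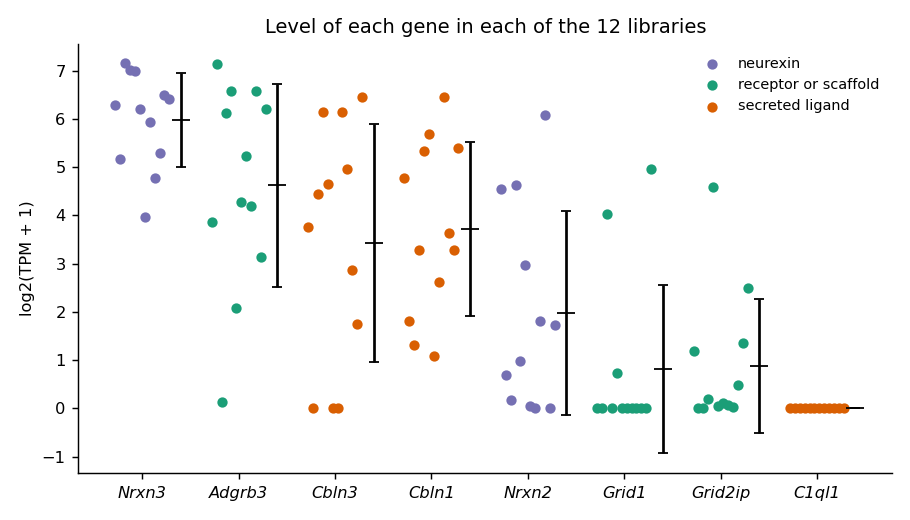
Level of each of the 8 genes on the log2(TPM + 1) scale; each point is 1 of the 12 libraries, and the bar gives the mean and SD. The points of Nrxn3 lie in a narrow band, those of Adgrb3, Cbln3 and Cbln1 spread over most of the axis, and Grid1, Grid2ip and C1ql1 lie mostly at or near 0.

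The levels were then set against markers of the cells on either side, by the difference of log2(TPM + 1) from the median marker of a list in the same library, over 24 comparisons. The 7 measured genes all lay below the median Purkinje marker in 12 of 12 libraries (adjusted p = 0.000781 for each, exact permutation test), and C1ql1 was at 0. That median was at 7.74 or more on this scale in every library, and no value of these genes exceeded 7.15. Each test could therefore only give its smallest p, and these calls are not read as a result about the side of the synapse. The share of all annotated genes below this median was not counted. The difference was -2.48 ± 1.03 for Nrxn3, -3.83 ± 2.28 for Adgrb3, -4.74 ± 1.78 for Cbln1, -5.03 ± 2.64 for Cbln3 and -7.58 ± 1.33 for Grid2ip (SD, n = 12). The Purkinje-side Grid2ip lay further under the Purkinje markers than the granule cell ligands did. This only restates that its level was lower than theirs, since the same median was subtracted from each.

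Against the median granule cell marker the genes lay on both sides. Nrxn3 was above it by 2.15 ± 1.25 in 12 of 12 libraries (adjusted p = 0.000781). Cbln1 lay at -0.10 ± 2.16 (lower in 5 of 12 libraries, adjusted p = 0.875), Cbln3 at -0.39 ± 2.56 (lower in 6, adjusted p = 0.630) and Adgrb3 at 0.80 ± 2.38 (higher in 8, adjusted p = 0.288), and none of them passed the test. Grid1 and Grid2ip were below it, by -3.01 ± 1.96 (adjusted p = 0.0026) and -2.94 ± 1.65 (adjusted p = 0.000781). The granule cell median was at 1.74 or more on this scale in every library. Grid1 had no count in 9 libraries and Grid2ip had a median of 0.115 TPM, so most of their signs were fixed by that floor. These calls are not read as a result about the side of the synapse. Nrxn2 was below the granule cell median by -1.85 ± 2.62 (8 of 12, adjusted p = 0.0434), a call lost without any 1 of libraries 2, 3, 5, 6, 8, 9, 12 or 13 (adjusted p = 0.075 to 0.0867). Against the median Bergmann glia and astrocyte marker 6 of the 7 measured genes were lower and Nrxn3 was not (-0.39 ± 1.06, adjusted p = 0.273). That median was at 5.47 or more in every library, and no value of Grid1 or Grid2ip exceeded 4.97. Their tests against it could therefore only give the smallest p. The share of all annotated genes below the granule cell or the Bergmann glia and astrocyte median was not counted either.

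**Figure D4:**
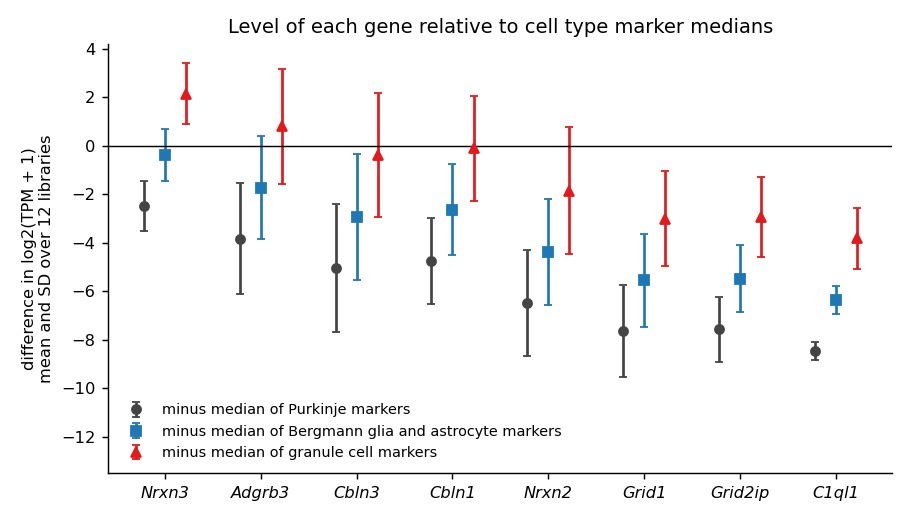
Difference in log2(TPM + 1) between each gene and the median of 3 marker lists in the same library, as the mean and SD over 12 libraries: Purkinje (black circles), Bergmann glia and astrocyte (blue squares) and granule cell (red triangles). All black points lie below 0, and the red points of Adgrb3, Cbln3 and Cbln1 lie within 1 unit of 0.

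The levels of 6 genes were then set against the summed TPM of 3 marker lists, which are shares of a library and not amounts of RNA. This gave 18 relations over the 12 libraries. None passed after adjustment. Cbln3 came nearest. It was lower in libraries with a higher summed TPM of Purkinje markers, with a Pearson's r of -0.742 (permutation p = 0.00741, adjusted p = 0.133) and a Spearman's rho of -0.718 (adjusted p = 0.120). The r was -0.609 without the 2 libraries farthest from the median Purkinje sum. The libraries also differed in gene counts per spike-in count, from 5.86 to 19.9. Libraries 4 and 13, with the lowest Purkinje sums of 18440 and 18995 TPM, had 15.3 and 19.9. The part of this difference in the relation of Cbln3 was not tested. With the granule cell sum Cbln3 had an r of 0.481 (0.524 without the 2 farthest libraries) and a rho of 0.701 (permutation p = 0.0134, adjusted p = 0.120). All 12 granule cell markers had a mean of at least 1 TPM, each had a count in at least 1 library, and 6 had a count in all 12. Over all annotated genes, 28.1% had such a mean, 60.9% had no count in any library and 8.46% had a count in all 12. The part of granule cell RNA in the levels of Cbln1 and Cbln3 was not tested.

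Variation between the splits was set against that of other genes of the same level. In edgeR's quasi-likelihood fit with Benjamini-Hochberg adjustment, 2 of 13899 genes, or 0.0144%, varied beyond the abundance trend, and none of the 7 genes tested here did. At an unadjusted p under 0.05 there was 1, Cbln3 (p = 0.0499, adjusted p = 0.773), beside 0.684% of all genes tested, and there was none without any 1 of libraries 2, 4, 6, 8, 9 or 13. A share of 0.684% is far below what a threshold of 0.05 would pass in a calibrated test, so the test was conservative here. The lack of calls therefore says little about the variation of these genes. Nrxn3 had a coefficient of variation of 0.561, at percentile 10.6 among the 501 genes nearest in mean TPM, whose median was 0.923. For Cbln1 it was 1.12 against a median of 1.35, for Cbln3 1.16 against 1.32, for Adgrb3 0.963 against 1.09, for Nrxn2 1.86 against 1.77, for Grid1 2.44 against 2.33 and for Grid2ip 2.52 against 2.37. The 2 highest libraries held 30.0% of the summed TPM of Nrxn3, 48.4% of Cbln1, 48.6% of Cbln3, 71.6% of Nrxn2, 88.6% of Grid2ip and 98.6% of Grid1.

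For the 3 genes with at least 50 counts in 10 or more libraries, the genes with the most similar pattern over the 12 libraries were found among 3004 genes. They were Mapk8ip3 (Pearson's r of 0.914) and Ate1 (0.870) for Cbln1, Rdx (0.928) and Wdr12 (0.883) for Adgrb3, and Fam234b (0.941) and Chgb (0.904) for Nrxn3. These are the highest of many values over points that share 1 pool, and are a description only.

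Other synapse organisers were measured in wider lists. Over all annotated genes, 28.1% had a mean of at least 1 TPM, 8.46% had a count in all 12 libraries and 60.9% had none in any. All 6 genes in the list of neurexins and LAR-type receptor phosphatases had a mean of at least 1 TPM, 4 had a count in all 12 libraries, and the median of the mean level was 31.4 TPM. Ptprs, a presynaptic receptor phosphatase, had a mean of 52.2 TPM, and Ptprf, the lowest, 1.31 TPM. Among 19 genes of the BAI, neuroligin, calsyntenin and related families, 15 had a mean of at least 1 TPM, 6 had a count in all 12 libraries, 1 had none in any, and the median of the mean level was 8.12 TPM. Adgrb3 belongs to this list and so does Clstn3, a calsyntenin of the postsynaptic membrane, at 87.5 TPM. Clstn1 stood at 34.6 TPM, and Adgrb2, a relative of Adgrb3, was the lowest with a count at 0.325 TPM. Of 10 latrophilins, teneurins and FLRT proteins, which bind each other across synapses, 8 had a mean of at least 1 TPM and 3 had a count in all 12 libraries, with a median of 5.76 TPM. By mean, Adgrl2, Tenm1 and Flrt3 led them at 16.0, 12.4 and 11.8 TPM, but their medians were 12.3, 2.055 and 0.01 TPM. Flrt3 had a count in 6 libraries and reached 104 TPM in its highest. Tenm3 had the lowest mean, at 0.457 TPM.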

How the data were processed

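Total RNA was measured by Smart-seq in 12 libraries of 1 pooled homogenate. A text file that the authors deposited beside each sample names mm10 and GENCODE M4 for the quantification; not given in the sources used here are aligner, quantification program and strand. Expected counts in the deposited tables, so named per the file headers, are estimates that divide ambiguous reads among genes and transcripts. TPM in the deposited tables, so named per the file headers, was computed with spike-ins included and is relative within a library, so that 1 abundant gene lowers all others. The libraries had 15167400 to 27806000 expected counts. Of 69691 features, 43346 are annotated genes, and 42462 of these matched GENCODE M21, on the same assembly, which gave symbols, types and coordinates.

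Genes were compared within each library by differences of log2(TPM + 1), with a pseudocount of 1, in an exact two-sided permutation test of their 4096 sign patterns; this scale understates changes of low genes. P-values were adjusted by the Benjamini-Hochberg method over 28 pairs and over 24 marker comparisons, at 0.05. Variation was tested in edgeR 4.0.16 (R 4.3.3) on rounded expected counts with TMM factors, with a minimum mean count of 5. Correlations used 100000 resamples, for genes with a count in at least 6 libraries. Likeness was sought among genes with a mean of at least 10 TPM and at least 50 counts in 10 libraries. Scripts ran in Python 3.11.15 and were tested on simulated data.

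Named were all 8 genes, the 3 highest and the lowest measured of each synapse list, the 3 highest of each marker list where a result used them, and the 2 genes most like each well-measured gene. The members and lists were chosen with earlier results of these data known. Some genes that the rule takes are not reported here. Alternatives were pseudocounts of 0.1 and 10, TPM rescaled over annotated genes, counts under 50 set to 0, other count minimums and normalisations in edgeR, and leaving out each library. Protein-coding transcripts only was an alternative chosen after seeing the data.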

Additional observations from a re-analysis of the deposited data

How the results depend on the processing

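Counts over the 8 genes, C1ql1 at 0 included, stayed within 1.5 times of those found with the settings reported (19 pairs) under every alternative run: 18 to 21 pairs, 8 genes against the Purkinje, 4 to 5 against the granule cell and 7 against the Bergmann glia and astrocyte median, with 0 of the 7 genes tested called for variation and 0 correlations. Over all genes, the 2 called for variation became 1 without library 1. Differences near 0 changed sign on the log2(TPM + 1) scale, and the cause was not tested. With a pseudocount of 10 TPM, Grid1 minus Grid2ip was 0.058, Cbln1 minus Cbln3 -0.022, Cbln1 minus the granule cell median 0.041 and Cbln3 minus it 0.063. Nrxn2 minus the granule cell median was then -0.67 (adjusted p = 0.136) and Cbln1 minus Nrxn2 lost its call (adjusted p = 0.129). With counts under 50 set to 0, Grid1 minus Grid2ip was 0.11. With protein-coding transcripts only, chosen after seeing the data, Cbln1 minus the granule cell median was 0.21, while Grid1 minus Nrxn2 (-0.80, adjusted p = 0.0469) and Cbln3 minus Nrxn2 (2.31, adjusted p = 0.0164) passed the threshold. Leaving out each library in turn moved Grid1 minus Grid2ip between -0.44 and 0.28, Cbln1 minus the granule cell median between -0.54 and 0.19, Cbln1 minus Cbln3 between -0.20 and 0.64, and Cbln3 minus the granule cell median between -0.72 and 0.052. With 1 mouse and 1 pool, no value speaks of animals.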
